A study of Mus musculus with 6 samples.

Results

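Cytochrome P450 enzymes of families 1 to 4 were chosen by symbol, as every gene entry named Cyp followed by a family number from 1 to 4, a subfamily letter and a member number, with pseudogenes left out. This gave 80 of 24489 gene entries, in 21 subfamilies, and 66 of the 80 had at least 10 reads over the 6 libraries. The study sequenced polyadenylated RNA from a liver lobe of mice on a C3H/C57bl6J background, all at postnatal day 10 and untreated. Of the 6 libraries, 3 came from Jag1Ndr/Ndr pups, homozygous for the Nodder (Ndr) missense allele of the Notch ligand gene Jag1, and 3 from Jag1+/+ pups. Such mice serve to model Alagille syndrome, in which bile ducts are too few, and every cell of the animal carries the allele. Whether each library is from its own animal is not stated, so the spread behind the p-values may be partly technical.

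P450 enzymes are heme proteins of the endoplasmic reticulum that insert an oxygen atom into their substrates, with electrons passed on from NADPH by the reductase Por. Families 1 to 3 oxidise drugs, toxins, steroids and bile acids, and family 4 mainly hydroxylates fatty acids and leukotrienes. Hepatocytes hold most of them, several are confined to the cells around the central vein, and their transcripts are set by the receptors AHR, CAR (Nr1i3), PXR (Nr1i2) and PPAR alpha and, for the forms that differ between the sexes, by growth hormone.

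The given P450 markers Cyp1a2, Cyp2e1 and Cyp2b10 were all detected in Jag1+/+ livers, with Cyp2e1 first among all members by deposited RPKM, a level per kilobase of transcript. Depth was 12992592, 59653111 and 17478916 reads in Jag1Ndr/Ndr replicates 1, 2 and 3, against 17548954, 32326157 and 40499166 in Jag1+/+ replicates 1, 2 and 3. A gene with 0 reads could still be present at up to 0.231 CPM (reads scaled to library size, with TMM factors throughout) in the shallowest library and 0.0503 CPM in the deepest, from 3 reads and for counting error only. The deposited RPKM had been multiplied by the authors' TMM factors, the opposite of the scaling of CPM. RPKM means of the genotypes are therefore given for rank and not as a comparison of genotypes. Jag1 measured 4.84 ± 1.59 CPM in Jag1Ndr/Ndr and 5.96 ± 0.807 CPM in Jag1+/+ livers (mean ± SD, n = 3 each), and since the allele changes an amino acid, its transcript level is no check of the labels. Reads of Xist, an RNA of the inactive X chromosome, numbered 8, 32884 and 7252 in the Jag1Ndr/Ndr libraries, against 9679, 29 and 13 in the Jag1+/+ libraries, so the sexes were unevenly spread. Jag1Ndr/Ndr replicates lay far apart along the second principal component of all genes (22.1% of the variance, at 46.7, -43.6 and -19.9), against 7.35, 2.14 and 7.35 in Jag1+/+ livers.

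In Jag1Ndr/Ndr livers the P450 transcripts that differed were lower with 1 exception. Transcripts of Cyp2e1, which oxidises ethanol and acetaminophen, of the caffeine-oxidising Cyp1a2, of all 3 tested Cyp2b genes and of the arachidonic acid epoxygenase Cyp2j5 fell between 2.91-fold and 20.8-fold, while Cyp1b1 rose 4.26-fold. Of the 66 members, 56 passed the filter on low counts and were tested, and 10 were lower in Jag1Ndr/Ndr livers at an adjusted p under 0.05 (quasi-likelihood test of edgeR, Benjamini-Hochberg adjusted over 13819 genes). That is 17.9% of the tested members, against 2.9% of all genes tested. Only Cyp1b1 was higher, 1.79% of the tested members against 4.73% of all genes tested. The 11 genes belong to 8 of the 21 subfamilies. The median log2 fold change (Jag1Ndr/Ndr over Jag1+/+) was -0.18 over the tested members and 0.00 over all genes tested. In 18 tested members all Jag1Ndr/Ndr libraries lay below all Jag1+/+ libraries, and in 5 above, where all genes gave 14.2% below and 14.8% above. Fewer hepatocytes and less RNA per hepatocyte cannot be told apart in bulk tissue.

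**Figure D1:**
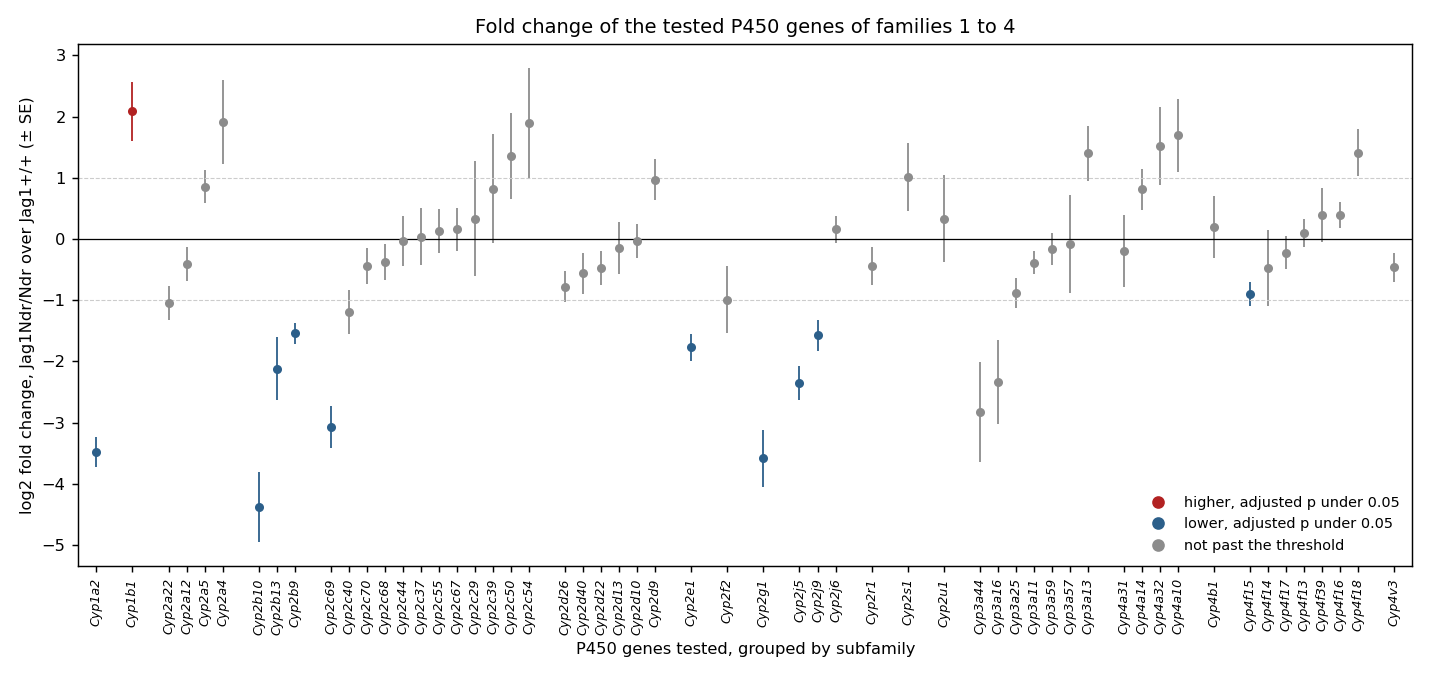
Log2 fold change, Jag1Ndr/Ndr over Jag1+/+, with its standard error (bars) for the 56 tested P450 genes, grouped by subfamily along the horizontal axis. Dashed lines mark a 2-fold change, and the 10 genes past the threshold below 0 fall in 7 subfamilies, while Cyp1b1 is the only coloured point above 0.

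Together, families 1 to 4 took 0.626%, 0.646% and 0.532% of all reads in Jag1Ndr/Ndr replicates 1, 2 and 3, against 1.05%, 0.941% and 1.02% in Jag1+/+ replicates 1, 2 and 3, with no overlap. Cyp2e1 alone made up 17.2%, 21.1% and 16.7% of these P450 reads in Jag1Ndr/Ndr livers, against 36.2%, 37.2% and 31.7% in Jag1+/+ livers. With Cyp2e1 taken out, the share of all reads was 0.490 ± 0.0410% in Jag1Ndr/Ndr and 0.652 ± 0.0550% in Jag1+/+ livers (n = 3 each). The summed level of family 1 was 32.7 ± 4.90 CPM in Jag1Ndr/Ndr and 352 ± 91.5 CPM in Jag1+/+ livers. That of family 2 was 3814 ± 1026 CPM in Jag1Ndr/Ndr and 7622 ± 210.4 CPM in Jag1+/+ livers, and that of family 3 was 1037 ± 101 CPM in Jag1Ndr/Ndr and 1674 ± 263 CPM in Jag1+/+ livers. Family 4 alone had the higher mean in Jag1Ndr/Ndr livers, at 976 ± 285 CPM, against 758 ± 25.2 CPM in Jag1+/+ livers. Its Jag1Ndr/Ndr libraries lay on both sides of the Jag1+/+ libraries, at 1202, 1070.2 and 656 CPM in Jag1Ndr/Ndr against 744, 787 and 743 CPM in Jag1+/+ livers. These sums were not tested.

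**Figure D2:**
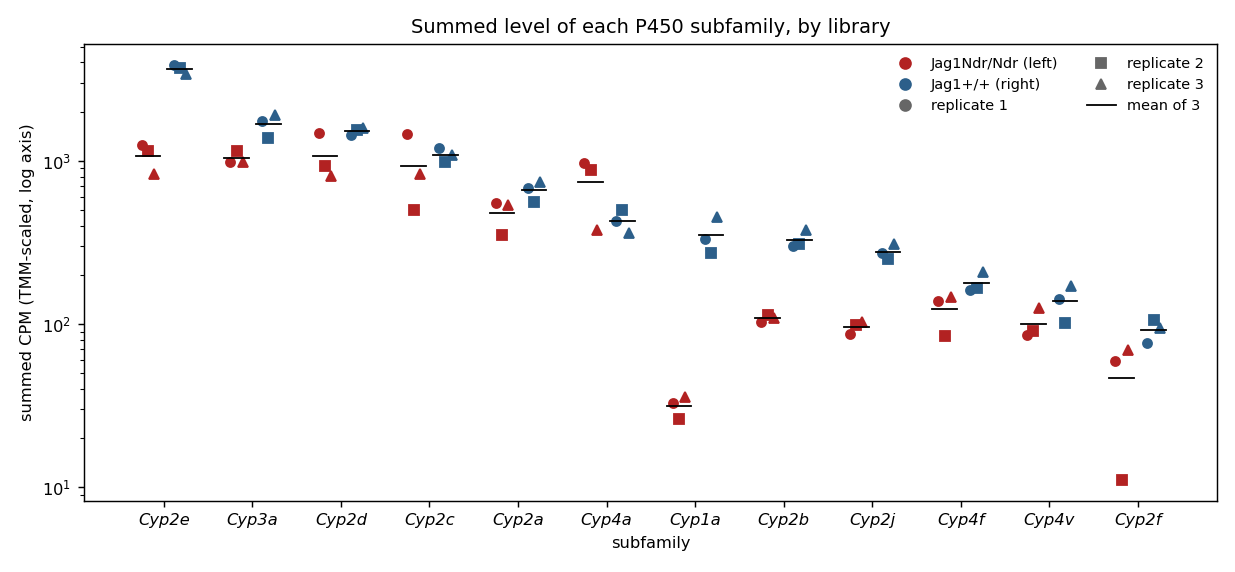
Summed TMM-scaled CPM of the members of each subfamily (log axis) in each library, with Jag1Ndr/Ndr to the left of Jag1+/+ and the line at the mean of 3. The 12 subfamilies shown are ordered by level, and the Jag1Ndr/Ndr points lie below all Jag1+/+ points in 8 of them, overlapping in Cyp2c, Cyp2d, Cyp4a and Cyp4v.

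Family 1 holds the enzymes best known as AHR targets. Cyp1a2 (chromosome 9, positions 57676937 to 57683655 of GRCm38), which activates aromatic amines and lies in pericentral hepatocytes, measured 32.7, 26.4 and 35.5 CPM in Jag1Ndr/Ndr livers, against 330, 273 and 452 CPM in Jag1+/+ livers. The lowest Jag1+/+ library stood well above the highest Jag1Ndr/Ndr library. The log2 fold change was -3.48 ± 0.25 (SE; edgeR adjusted p = 0.000818), an 11.2-fold fall, and by deposited RPKM Cyp1a2 ranked 26th in Jag1Ndr/Ndr and 6th in Jag1+/+ livers among the members. Cyp1a1, the other AHR-inducible form, had 2 reads over the Jag1Ndr/Ndr libraries and 10 over the Jag1+/+ libraries, a rate ratio of 0.171 (95% exact Poisson interval 0.0182 to 0.804, counting error only), and was too low to test.

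Cyp1b1 (chromosome 17, positions 79706940 to 79715061), which oxidises oestradiol and polycyclic hydrocarbons and is known mainly from tissues other than hepatocytes, went the other way. It measured 1.77, 0.702 and 0.853 CPM in Jag1Ndr/Ndr livers, against 0.232, 0.227 and 0.258 CPM in Jag1+/+ livers, without overlap. Its log2 fold change was 2.09 ± 0.48 (edgeR adjusted p = 0.0374), on 20, 50 and 16 reads in Jag1Ndr/Ndr against 4, 7 and 10 in Jag1+/+ libraries. The call rested on few reads and was lost without Jag1+/+ replicate 1, 2 or 3 (edgeR adjusted p = 0.117, 0.148 and 0.141) and without Jag1Ndr/Ndr replicate 3 (0.0605). It was lost in the deposited RPKM as well (0.356, 0.108 and 0.250 with pseudocounts of 1, 0.1 and 0.5). Summed levels of 9 stellate cell and fibroblast markers ran from 726 to 1140 CPM in Jag1Ndr/Ndr and from 926 to 1066 CPM in Jag1+/+ livers. Their median log2 fold change was 0.39, with 0 higher and 1 lower by edgeR, and 2 higher and 1 lower by DESeq2. Their part in the level of Cyp1b1 was not tested.

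**Figure D3:**
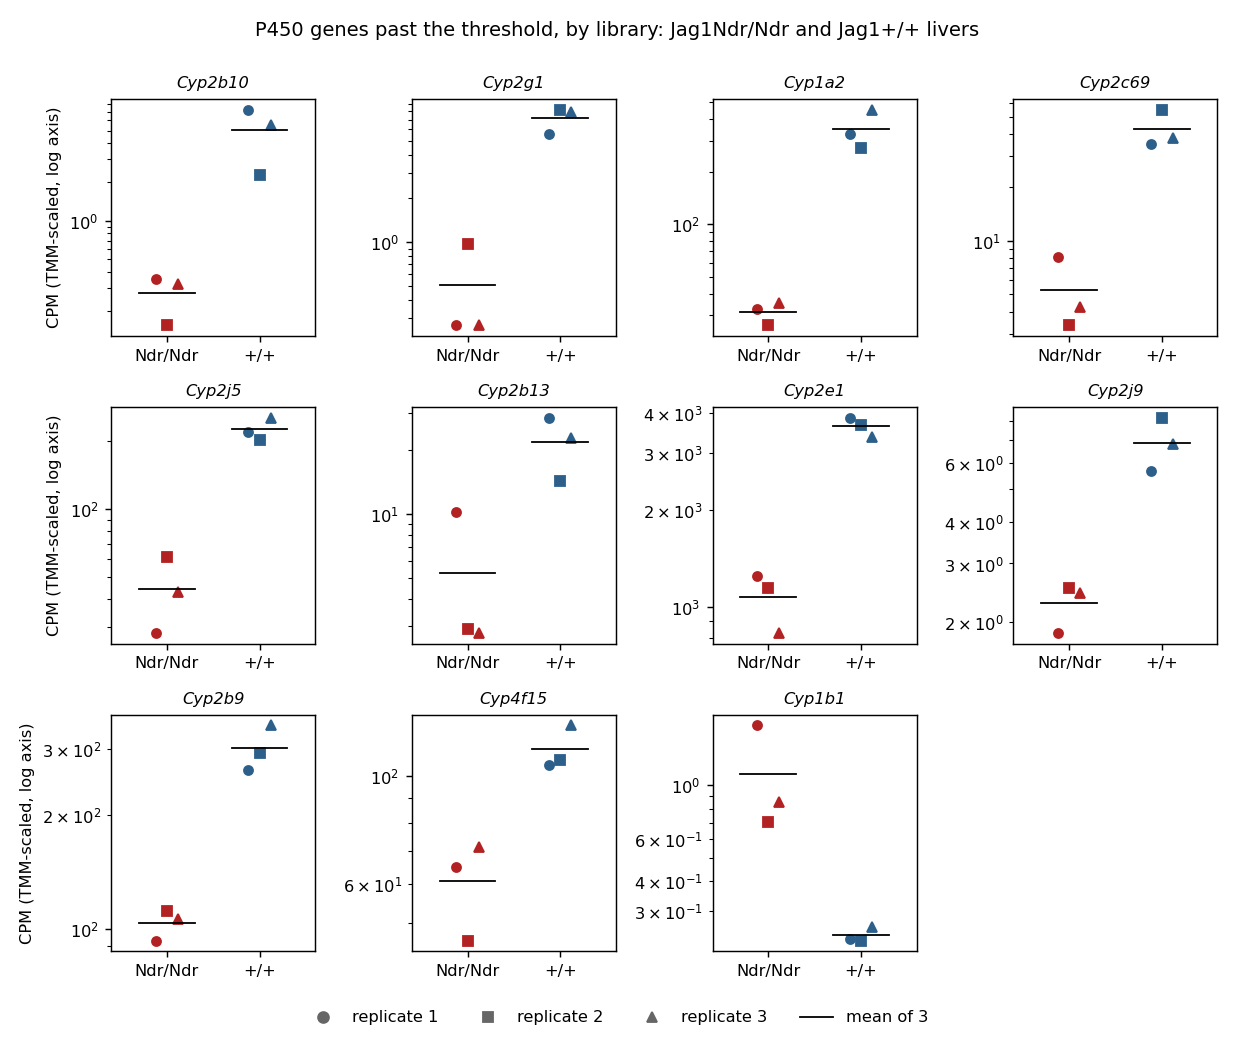
TMM-scaled CPM (log axes that differ between panels) of the 11 P450 genes past the threshold, in each Jag1Ndr/Ndr and Jag1+/+ library, with the line at the mean of 3. In every panel the genotypes are apart, 10 with Jag1Ndr/Ndr below and Cyp1b1 with Jag1Ndr/Ndr above.

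Cyp2e1 (chromosome 7, positions 140763819 to 140774990) had the highest level per length of all members in both genotypes, at 707 RPKM in Jag1Ndr/Ndr and 1966 RPKM in Jag1+/+ livers on average. In CPM it measured 1243, 1143 and 829 in the Jag1Ndr/Ndr libraries, against 3867, 3675 and 3379 in the Jag1+/+ libraries. These ranges were far apart, and the log2 fold change was -1.76 ± 0.22 (edgeR adjusted p = 0.00454). Like Cyp1a2, Cyp2e1 is a pericentral enzyme. Of 13 tested pericentral genes other than P450, edgeR called 3 lower and 0 higher (6 at an unadjusted p under 0.05, and 5 lower and 0 higher by DESeq2), with a median log2 fold change of -0.54. Over all genes tested, edgeR called 2.9% lower and 4.73% higher. The share of all genes at that unadjusted p was not counted, here and below. The pericentral genes called were the glutamine synthetase Glul (-1.19 ± 0.24, edgeR adjusted p = 0.0230), the hepatokine Lect2 (-1.90 ± 0.31, 0.0113) and the glutamate transporter Slc1a2 (-4.03 ± 0.90, 0.0338). Glul had an adjusted p of 0.0570, 0.0901 and 0.0982 without Jag1Ndr/Ndr replicate 3 and Jag1+/+ replicates 1 and 2, and Lect2 one of 0.0520 without Jag1+/+ replicate 1. Slc1a2 had 0.0949, 0.0912, 0.109 and 0.0882 without Jag1Ndr/Ndr replicate 3 and Jag1+/+ replicates 1, 2 and 3, and its log2 fold change was -5.86 and -3.16 without Jag1Ndr/Ndr replicates 1 and 2. The count of pericentral genes called lower lay between 0 and 4 with 1 library left out, at 1 without Jag1Ndr/Ndr replicate 3 or Jag1+/+ replicate 2 and at 0 without Jag1+/+ replicate 1. Glul also lost its call with library totals in place of TMM (0.0714) and in the deposited RPKM (0.165 to 0.177). The summed level of the pericentral list ran from 642 to 893 CPM in Jag1Ndr/Ndr and from 1347 to 1387 CPM in Jag1+/+ livers.

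Among 14 tested periportal genes, 0 were lower and 1 higher by edgeR (4 at an unadjusted p under 0.05, and 0 lower and 2 higher by DESeq2), with a median log2 fold change of 0.03. Over all genes tested, edgeR called 2.9% lower and 4.73% higher. Without Jag1Ndr/Ndr replicate 2 the periportal count was 2 higher, without Jag1Ndr/Ndr replicate 3 it was 2 lower and 0 higher, and without any other single library it was 0. The gene higher with all libraries was Hsd17b13, a lipid droplet enzyme (0.78 ± 0.20, edgeR adjusted p = 0.0499), whose call was lost in 11 of 18 alternatives. Without Jag1Ndr/Ndr replicates 1 and 3 and Jag1+/+ replicates 1, 2 and 3 its adjusted p was 0.0660, 0.0965, 0.180, 0.0929 and 0.238. The periportal P450 gene Cyp2f2 (chromosome 7, positions 27119955 to 27133660), which activates naphthalene in mouse airways, measured 59.6, 11.1 and 69.4 CPM in Jag1Ndr/Ndr livers, against 76.1, 106 and 94.3 CPM in Jag1+/+ livers. All Jag1Ndr/Ndr libraries lay below the Jag1+/+ libraries, replicate 2 by far the lowest, and the log2 fold change of -0.99 ± 0.55 did not pass (edgeR adjusted p = 0.334).

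The start regions of Cyp1a2 and Cyp2e1 are shown because both pericentral genes carry a TATA box close to the start. Sequences are from RefSeq's GRCm38.p6 promoter table, from 200 bases before to 20 bases after the start as that table places it, with TATAAA in capitals. Cyp1a2 lies at chr9:57683636-57683855 on the - strand, with the box beginning at position -29. Cyp2e1 lies at chr7:140763619-140763838 on the + strand, with the box at -31.
Cyp1a2: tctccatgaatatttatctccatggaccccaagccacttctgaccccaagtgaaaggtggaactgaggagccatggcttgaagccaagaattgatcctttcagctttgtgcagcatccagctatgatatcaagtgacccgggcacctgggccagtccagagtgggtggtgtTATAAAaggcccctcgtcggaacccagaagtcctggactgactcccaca
Cyp2e1: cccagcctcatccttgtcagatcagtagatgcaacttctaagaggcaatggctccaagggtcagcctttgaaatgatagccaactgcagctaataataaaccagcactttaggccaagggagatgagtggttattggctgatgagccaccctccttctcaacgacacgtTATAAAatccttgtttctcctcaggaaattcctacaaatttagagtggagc

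Promoters of 54 members were in the table, 10 of them of the 11 genes past the threshold, and Cyp2g1 was the one not matched. Over windows of 300 bases (250 before and 50 after the start, both strands), TATAAA was in 27 of the 54 member promoters and in 13.6% of 32851 promoters of all genes, and in 4 of the 10. The HNF4A-type letters CAAAGTCC were in 22.2% of member promoters and 1.42% of all, and in 1 of the 10. The C/EBP-type letters TTGCNNAA were in 24.1% of member promoters and 10.8% of all, and in 5 of the 10. The xenobiotic response element letters TNGCGTG, bound by AHR, were in 1 of 54 member promoters, that of Cyp2c68, and in 5.07% of all. These are matches of letters in a short window, and paralogs share sequence, so the members are not independent.

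All 3 Cyp2b genes with enough reads fell. Cyp2b10 (chromosome 7, positions 25897658 to 25926624), the mouse gene most used as a readout of CAR, measured 0.355, 0.154 and 0.320 CPM in Jag1Ndr/Ndr livers, against 7.24, 2.27 and 5.56 CPM in Jag1+/+ livers. The genotypes did not overlap, and the log2 fold change of -4.38 ± 0.57 (edgeR adjusted p = 0.00548) was the most negative among the members past the threshold. It rested on 4, 11 and 6 reads in the Jag1Ndr/Ndr libraries. Cyp2b9, a form that in adult mice prevails in females, was the main Cyp2b transcript per length in both genotypes, at 65.6 RPKM in Jag1Ndr/Ndr and 150 RPKM in Jag1+/+ livers. It measured 93.0, 111 and 106 CPM in Jag1Ndr/Ndr livers, against 264, 293 and 347 CPM in Jag1+/+ livers, a narrow spread in each genotype (log2 fold change -1.54 ± 0.18, edgeR adjusted p = 0.00353).

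Cyp2b13, also a female-prevalent form of adult liver, measured 10.2, 2.90 and 2.77 CPM in Jag1Ndr/Ndr livers, against 28.4, 14.3 and 22.7 CPM in Jag1+/+ livers. Jag1Ndr/Ndr replicate 1 came near the lowest Jag1+/+ library without reaching it, and the log2 fold change was -2.12 ± 0.51 (edgeR adjusted p = 0.0438). The value was -2.94 without Jag1Ndr/Ndr replicate 1 (edgeR adjusted p = 0.00756). The call was lost without Jag1Ndr/Ndr replicates 2 and 3 (0.0940 and 0.110), without Jag1+/+ replicates 1, 2 and 3 (0.139, 0.0803 and 0.130) and, sex being added to the fit, at 0.0723. Of the 50-base stretches of Cyp2b13 transcripts, 27.3% also occur in transcripts of another gene, so the count of Cyp2b13 is uncertain. Its span also overlaps that of the pseudogene Rnf170-ps. For Cyp2b10 the shared part was 8.70% and for Cyp2b9 11.2%. The 2 other Cyp2b genes, Cyp2b19 and Cyp2b23, had 2 and 8 reads in all.

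The Cyp2b start regions are shown because all 3 genes fell and 2 of them have nearly the same upstream sequence. Over 300 bases, the windows of Cyp2b9 and Cyp2b13 were identical at 298 positions (99.3%), and each matched Cyp2b10 at 229 of 286 aligned positions (80.1%). Capitals mark TTGCNNAA. Cyp2b10 lies at chr7:25897458-25897677, Cyp2b9 at chr7:26173209-26173428 and Cyp2b13 at chr7:26061295-26061514, all on the + strand of GRCm38.p6 and all from RefSeq. The capitals begin at position -58 in Cyp2b10 and at -180 in both Cyp2b9 and Cyp2b13.
Cyp2b10: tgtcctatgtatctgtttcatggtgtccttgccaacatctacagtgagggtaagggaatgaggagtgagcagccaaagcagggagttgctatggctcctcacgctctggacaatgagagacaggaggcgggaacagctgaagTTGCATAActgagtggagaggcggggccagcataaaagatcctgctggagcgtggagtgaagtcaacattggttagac
Cyp2b9: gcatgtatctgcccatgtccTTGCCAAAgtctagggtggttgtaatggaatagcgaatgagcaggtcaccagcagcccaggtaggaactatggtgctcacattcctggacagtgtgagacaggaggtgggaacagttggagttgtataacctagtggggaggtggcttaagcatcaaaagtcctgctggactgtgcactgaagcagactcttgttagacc
Cyp2b13: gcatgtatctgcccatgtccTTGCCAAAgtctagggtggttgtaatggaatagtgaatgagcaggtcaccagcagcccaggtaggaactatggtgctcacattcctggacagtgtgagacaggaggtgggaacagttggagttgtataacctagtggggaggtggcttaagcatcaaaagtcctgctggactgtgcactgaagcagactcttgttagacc

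The Cyp2b genes belong to a run of Cyp2 genes on chromosome 7, in the order Cyp2s1, Cyp2b10, Cyp2b13, Cyp2b9, Cyp2a4, Cyp2g1, Cyp2a5, Cyp2a22, Cyp2a12, Cyp2f2 and Cyp2t4. Cyp2g1 (positions 26808927 to 26821197), a steroid hydroxylase first known from the olfactory mucosa of rabbit and rat, measured 0.266, 0.968 and 0.267 CPM in Jag1Ndr/Ndr livers, against 5.56, 8.15 and 7.88 CPM in Jag1+/+ livers. Its log2 fold change was -3.58 ± 0.47 (edgeR adjusted p = 0.00565) without overlap, and -4.73 without Jag1Ndr/Ndr replicate 2 (0.00105). Jag1Ndr/Ndr replicate 1 had 3 reads of it, the count taken as the detection floor. The span of Cyp2g1 overlaps that of the predicted gene Gm51443, and whether their exons overlap was not examined. Reads of any shared exon could not be told apart in these unstranded libraries. Spans of other members, among them Cyp2a4, Cyp2a12, Cyp2a22, Cyp4a14 and Cyp4f18, also overlap those of other genes.

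Cyp2a5, the coumarin hydroxylase of mouse liver that begins 14.1 kb beyond Cyp2g1, measured 21.5, 10.3 and 15.5 CPM in Jag1Ndr/Ndr livers, against 9.90, 7.66 and 8.35 CPM in Jag1+/+ livers. Its log2 fold change of 0.86 ± 0.27 did not pass (edgeR adjusted p = 0.101), and passed without Jag1Ndr/Ndr replicate 2 (1.11, 0.0255), with the replicate number as a block (0.0437) and by DESeq2 (0.0376). Of the 4 tested Cyp2a genes edgeR called 0 (3 at an unadjusted p under 0.05, and 1 higher and 1 lower by DESeq2). Cyp2a12, the most abundant of them per length, which rehydroxylates secondary bile acids in mice, measured 435, 232 and 464 CPM in Jag1Ndr/Ndr livers, against 510, 421 and 572 CPM in Jag1+/+ livers. The ranges overlapped (log2 fold change -0.41 ± 0.28, edgeR adjusted p = 0.446). Cyp2a22 stood at -1.04 ± 0.27 without overlap (edgeR adjusted p = 0.0559). It passed without Jag1Ndr/Ndr replicate 2 (-1.39, 0.0108), without the filter on low counts (0.0367), with library quality weights (0.0130) and by DESeq2 (0.00347). At the ends of the run, Cyp2s1 stood at 1.02 ± 0.56 (edgeR adjusted p = 0.333) and at 1.80 without Jag1+/+ replicate 1, and Cyp2t4 had 23 reads in all and was not tested.

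**Figure D4:**
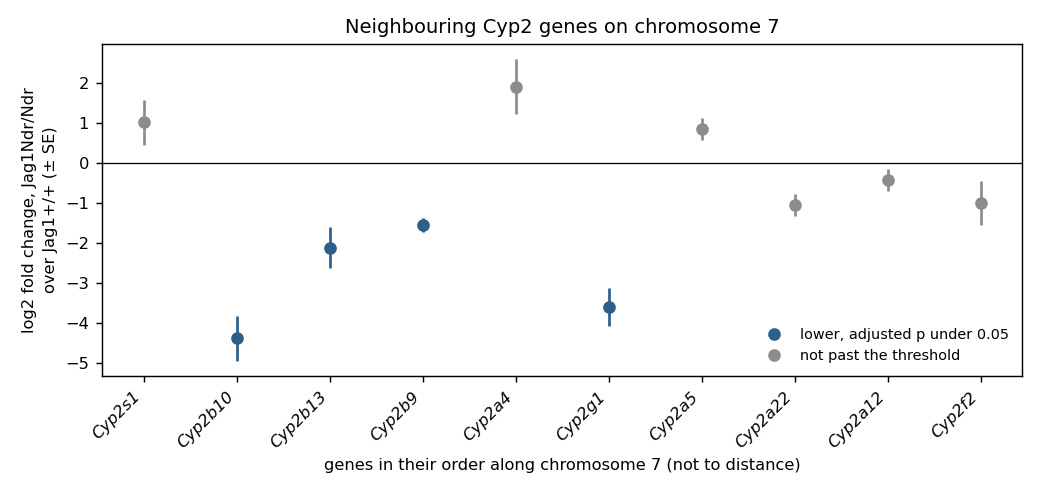
Log2 fold change, Jag1Ndr/Ndr over Jag1+/+, with its standard error (bars) for 10 tested Cyp2 genes in their order along chromosome 7, evenly spaced. Cyp2g1 at -3.58 lies between Cyp2a4 at 1.91 and Cyp2a5 at 0.86, neither of which passed the threshold.

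Of 12 tested Cyp2c genes, which in mice make epoxides of arachidonic acid and hydroxylate steroids and bile acids, only Cyp2c69 passed. Cyp2c69 (chromosome 19, positions 39842660 to 39886769) measured 8.15, 3.35 and 4.27 CPM in Jag1Ndr/Ndr livers, against 35.0, 54.5 and 37.8 CPM in Jag1+/+ livers, well apart (log2 fold change -3.07 ± 0.35, edgeR adjusted p = 0.00343). Its paralog Cyp2c40 measured 7.36, 11.3 and 3.89 CPM in Jag1Ndr/Ndr livers, against 13.3, 20.7 and 18.3 CPM in Jag1+/+ livers. It fell short of the threshold (-1.19 ± 0.36, edgeR adjusted p = 0.0837), and passed without Jag1Ndr/Ndr replicate 2 (-1.65, 0.0262), with the replicate number as a block (0.0380), with library quality weights (0.0328) and by DESeq2 (0.0118). Of their 50-base stretches, 54.3% in Cyp2c69 and 60.3% in Cyp2c40 also occur in another gene's transcripts, chiefly each other's, so how reads were divided between them is uncertain.

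Cyp2c70 had the highest level per length of the subfamily, at 245 RPKM in Jag1Ndr/Ndr and 287 RPKM in Jag1+/+ livers. It makes muricholic acids, the bile acids that set mice apart from humans, and shares no 50-base stretch with another gene. It measured 474, 233 and 451 CPM in Jag1Ndr/Ndr livers, against 587, 421 and 563 CPM in Jag1+/+ livers, with overlap (-0.44 ± 0.29, edgeR adjusted p = 0.426). The other 9 tested Cyp2c genes had log2 fold changes between -0.37 (Cyp2c68) and 1.89 (Cyp2c54), none of them past the threshold by edgeR, and their edgeR adjusted p was at least 0.268. The summed level of the subfamily was 932 ± 489 CPM in Jag1Ndr/Ndr and 1085 ± 103 CPM in Jag1+/+ livers (n = 3 each), so the mean differed less than the Jag1Ndr/Ndr libraries did among themselves.

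The start regions of Cyp2c69 and Cyp2c40 are shown because the upstream sequences are almost the same and edgeR called only Cyp2c69. Whether their fold changes differ was not tested, and how reads were divided between the genes is uncertain. Where the windows align they were identical at 267 of 270 positions (98.9%), and Cyp2c69 matched Cyp2c68 at 93.6% and Cyp2c67 at 93.2%. Both lie on the - strand of chromosome 19, Cyp2c69 at chr19:39886750-39886969 and Cyp2c40 at chr19:39812795-39813014 (RefSeq, GRCm38.p6). Capitals mark CAAAGTCC, at position -75 in Cyp2c69 and -45 in Cyp2c40, since the table places the starts differently.
Cyp2c69: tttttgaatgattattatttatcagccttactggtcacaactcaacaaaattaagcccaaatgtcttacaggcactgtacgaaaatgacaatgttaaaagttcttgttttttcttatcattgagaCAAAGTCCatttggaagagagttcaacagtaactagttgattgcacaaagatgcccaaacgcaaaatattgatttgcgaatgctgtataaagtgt
Cyp2c40: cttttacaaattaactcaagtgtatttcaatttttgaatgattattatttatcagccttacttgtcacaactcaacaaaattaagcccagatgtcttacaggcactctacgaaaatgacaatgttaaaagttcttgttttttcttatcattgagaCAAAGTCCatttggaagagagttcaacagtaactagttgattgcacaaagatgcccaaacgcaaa

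Of the 3 tested Cyp2j genes, which make epoxides of arachidonic acid, Cyp2j5 and Cyp2j9 fell. Cyp2j5 (chromosome 4, positions 96627432 to 96664171), the form of mouse liver and kidney, measured 28.3, 61.4 and 43.0 CPM in Jag1Ndr/Ndr livers, against 221, 203 and 255 CPM in Jag1+/+ livers (log2 fold change -2.35 ± 0.28, edgeR adjusted p = 0.00397). Every Jag1Ndr/Ndr library was below every Jag1+/+ library by a wide margin. Cyp2j9 measured 1.86, 2.54 and 2.45 CPM in Jag1Ndr/Ndr livers, against 5.68, 8.18 and 6.82 CPM in Jag1+/+ livers (-1.57 ± 0.25, edgeR adjusted p = 0.0102). Its call was lost without Jag1+/+ replicate 2 (0.0547) and in the deposited RPKM (0.190, 0.197 and 0.193 with pseudocounts of 1, 0.1 and 0.5). Cyp2j6, which lies next to Cyp2j9, overlapped between genotypes, at 56.4, 34.1 and 58.1 CPM in Jag1Ndr/Ndr livers, against 45.3, 38.5 and 48.5 CPM in Jag1+/+ livers (0.16 ± 0.22, edgeR adjusted p = 0.732). Cyp2j8 had 1 read over the Jag1Ndr/Ndr libraries and 9 over the Jag1+/+ libraries, a rate ratio of 0.0952 (95% exact interval 0.00217 to 0.687).

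Cyp2d genes, relatives of the human drug-metabolising CYP2D6, gave 0 calls among 6 tested by edgeR (2 at an unadjusted p under 0.05, and 1 higher and 1 lower by DESeq2). Cyp2d26, second of all members per length in both genotypes (459 RPKM in Jag1Ndr/Ndr and 666 RPKM in Jag1+/+ livers), measured 912, 661 and 476 CPM in Jag1Ndr/Ndr livers, against 1122, 1189 and 1195 CPM in Jag1+/+ livers. The genotypes were apart, yet the log2 fold change of -0.77 ± 0.25 did not pass (edgeR adjusted p = 0.104). It passed without Jag1Ndr/Ndr replicate 1 (-1.05, 0.0240), with library quality weights (0.0129) and by DESeq2 (0.0222). Cyp2d9, a testosterone hydroxylase that prevails in adult males, stood at 0.97 ± 0.34 (edgeR adjusted p = 0.128). It passed without Jag1Ndr/Ndr replicate 2 (1.27, 0.0316), by DESeq2 (0.0352) and in the deposited RPKM (0.0234 to 0.0262). The single-member subfamilies gave no further calls by edgeR. The vitamin D hydroxylase Cyp2r1 stood at -0.44 ± 0.31 (edgeR adjusted p = 0.471). The fatty acid hydroxylase Cyp2u1 stood at 0.33 ± 0.71 (0.838), and at -1.03 without Jag1Ndr/Ndr replicate 3.

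Family 3 in mice is the Cyp3a subfamily, which oxidises steroids, bile acids and many drugs. Of 7 tested genes edgeR called 0 (4 at an unadjusted p under 0.05, and 1 higher and 1 lower by DESeq2), although 4 stood lower without overlap between genotypes. Over all genes tested, 14.2% lay lower without overlap. Cyp3a11, the main PXR target of adult mouse liver and ranked 3rd of all members per length in both genotypes, measured 704, 781 and 718 CPM in Jag1Ndr/Ndr livers, against 976, 811 and 1093 CPM in Jag1+/+ livers. The difference was small (-0.39 ± 0.19, edgeR adjusted p = 0.272). Cyp3a16, a form of fetal and young mouse liver, measured 27.2, 108 and 12.1 CPM in Jag1Ndr/Ndr livers, against 237, 201 and 310 CPM in Jag1+/+ livers. Cyp3a44, which prevails in adult females, measured 5.58, 65.2 and 9.23 CPM in Jag1Ndr/Ndr livers, against 247, 148 and 186 CPM in Jag1+/+ livers. In both genes Jag1Ndr/Ndr replicate 2 was the highest of its genotype and the groups stayed apart.

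The log2 fold changes of Cyp3a16 and Cyp3a44 were -2.33 ± 0.69 and -2.83 ± 0.81 (edgeR adjusted p = 0.0806 and 0.0745). Without Jag1Ndr/Ndr replicate 2 they were -3.67 and -4.69 (0.00328 and 0.000902). Both also passed in the deposited RPKM, with library quality weights, without the filter on low counts and with the replicate number as a block (0.0450 and 0.0376). Transcripts of Cyp3a44 share 26.5% of their 50-base stretches with other genes, chiefly Cyp3a41a. The entry that joins Cyp3a41a and Cyp3a41b had 28 reads and the entry Cyp3a41a alone 13, and neither was tested. Cyp3a25 stood at -0.88 ± 0.24 (edgeR adjusted p = 0.0630), and passed with sex as a covariate (0.0443), without the filter (0.0454) and by DESeq2 (0.00598). Cyp3a13 measured 133, 67.4 and 75.1 CPM in Jag1Ndr/Ndr livers, against 13.8, 43.1 and 47.0 CPM in Jag1+/+ livers. It was higher in all Jag1Ndr/Ndr libraries without passing (1.40 ± 0.44, edgeR adjusted p = 0.0994), and passed by DESeq2 (0.00958), in the deposited RPKM (0.0158 to 0.0195) and with sex added to the fit (1.95, 0.00925).

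Family 4 enzymes hydroxylate the far end of fatty acids and eicosanoids. Of 4 tested Cyp4a genes, which are PPAR alpha targets, edgeR called 0 (3 at an unadjusted p under 0.05, and 0 by DESeq2). Cyp4a14, the most abundant of them per length (263 RPKM in Jag1Ndr/Ndr and 124 RPKM in Jag1+/+ livers), measured 769, 673 and 303 CPM in Jag1Ndr/Ndr livers, against 320, 392 and 282 CPM in Jag1+/+ livers. Jag1Ndr/Ndr replicate 3 lay within the Jag1+/+ range, and the log2 fold change was 0.81 ± 0.33 (edgeR adjusted p = 0.193). Without that library it was 1.13 (0.0300). Cyp4a10 measured 135, 76.0 and 20.3 CPM in Jag1Ndr/Ndr livers, against 34.6, 22.3 and 14.7 CPM in Jag1+/+ livers, again with replicate 3 inside the Jag1+/+ range (1.69 ± 0.60, edgeR adjusted p = 0.131, and 2.15, 0.0240 without it). It also passed with the replicate number as a block (1.42, 0.0285). The male forms Cyp4a12a and Cyp4a12b were listed at 0 in every library, as near-identical copies whose shared reads may not have been counted.

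Among 7 tested Cyp4f genes, Cyp4f15 (chromosome 17, positions 32685631 to 32703352), a fatty acid hydroxylase, fell. It measured 65.1, 45.9 and 71.5 CPM in Jag1Ndr/Ndr livers, against 106, 108 and 127 CPM in Jag1+/+ livers, without overlap (-0.90 ± 0.20, edgeR adjusted p = 0.0302). Its call was lost without Jag1+/+ replicates 1, 2 and 3 (0.0856, 0.101 and 0.134), in the deposited RPKM (0.289 to 0.304) and with sex added to the fit (0.0795). Cyp4f18, which inactivates the chemoattractant leukotriene B4 in mouse neutrophils, measured 3.55, 3.47 and 2.13 CPM in Jag1Ndr/Ndr livers, against 1.16, 0.649 and 1.60 CPM in Jag1+/+ livers. It was higher without overlap but did not pass (1.41 ± 0.39, edgeR adjusted p = 0.0646), and passed with library quality weights (0.0471) and by DESeq2 (0.0134). The summed level of 9 neutrophil markers, of which Ly6g matched no entry, ran from 1054 to 2324 CPM in Jag1Ndr/Ndr and from 617 to 744 CPM in Jag1+/+ livers, and its part in the level of Cyp4f18 was not tested. Cyp4v3, the mouse relative of human CYP4V2, stood at -0.46 ± 0.24 (edgeR adjusted p = 0.302). Cyp4b1, which activates furan toxins in lung, stood at 0.19 ± 0.51 (0.876) and turned to -0.44 without Jag1Ndr/Ndr replicate 2.

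Members differed widely among Jag1Ndr/Ndr libraries. The median SD of log2(CPM + 0.1) over the 56 tested members was 0.64 in Jag1Ndr/Ndr and 0.31 in Jag1+/+ livers. Over all genes tested it was 0.32 in Jag1Ndr/Ndr and 0.17 in Jag1+/+ livers. The SD was larger in Jag1Ndr/Ndr livers for 42 members (75.0%), and for 76.4% of all genes. Jag1Ndr/Ndr replicate 1 was the highest of its genotype for 55.4% of members (36.2% of all genes), and replicate 2 the lowest for 48.2% (31.3% of all genes).

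Cyp2c29, an arachidonic acid epoxygenase, had the widest range, 22.8-fold between Jag1Ndr/Ndr libraries and 1.95-fold between Jag1+/+ libraries. It measured 268, 11.6 and 29.2 CPM in Jag1Ndr/Ndr livers, against 107, 54.5 and 82.0 CPM in Jag1+/+ livers. Replicate 1 stood above and the other two below the Jag1+/+ range, and the log2 fold change of 0.33 ± 0.94 (edgeR adjusted p = 0.884) turned to -2.02 without Jag1Ndr/Ndr replicate 1 (0.0417). Cyp2a4, a steroid hydroxylase that prevails in adult females, measured 29.3, 3.47 and 7.09 CPM in Jag1Ndr/Ndr livers, against 2.90, 3.96 and 3.41 CPM in Jag1+/+ livers (1.91 ± 0.69, edgeR adjusted p = 0.140, and 2.40, 0.0338 without Jag1Ndr/Ndr replicate 2). Its highest value came from the library with 8 Xist reads. Cyp2c39 (0.82 ± 0.90) stood at -1.89 without Jag1Ndr/Ndr replicate 2 (0.0388). Cyp2a4 shares 38.0% of its 50-base stretches with other genes, chiefly Cyp2a5.

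**Figure D5:**
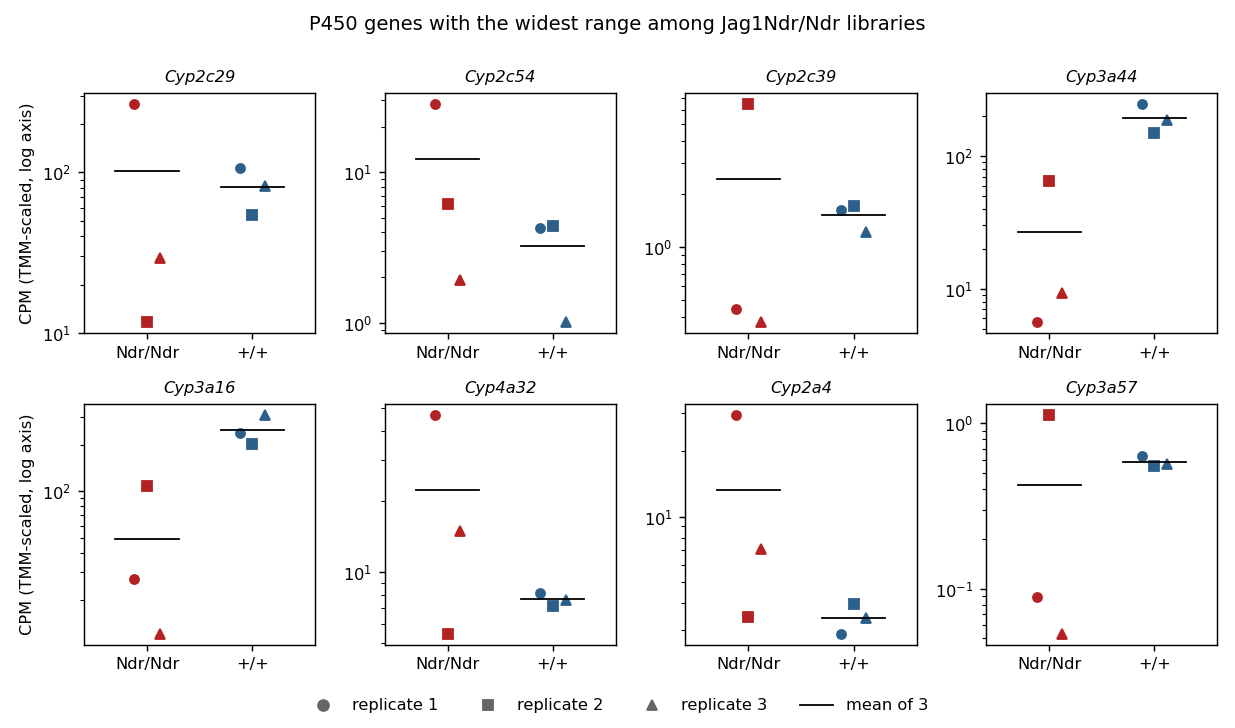
TMM-scaled CPM (log axes that differ between panels) of the 8 tested P450 genes with the widest range among Jag1Ndr/Ndr libraries, by library and genotype, with the line at the mean of 3. Replicate 1 is the highest Jag1Ndr/Ndr library for Cyp2c29, Cyp2c54, Cyp4a32 and Cyp2a4, and replicate 2 for Cyp2c39, Cyp3a44, Cyp3a16 and Cyp3a57, while the Jag1+/+ libraries lie close together for all but Cyp2c54.

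Most partners of P450 enzymes did not pass the threshold. Por, the reductase that supplies electrons, measured 353, 276 and 261 CPM in Jag1Ndr/Ndr livers, against 305, 294 and 372 CPM in Jag1+/+ livers, with overlap (-0.13 ± 0.19, edgeR adjusted p = 0.768, and 0.11 in the deposited RPKM). Alas1, which starts heme synthesis in liver, stood at -0.40 ± 0.28 (0.454). Of 17 tested genes of electron transfer and heme supply, 1 was higher and 0 lower by edgeR (4 at an unadjusted p under 0.05, and 2 higher and 0 lower by DESeq2), with a median of 0.18. Over all genes tested, edgeR called 4.73% higher and 2.9% lower. The count in this list was 2 higher without Jag1Ndr/Ndr replicate 2 or 3, 1 lower without Jag1Ndr/Ndr replicate 1 or 2, and 0 in both directions without Jag1+/+ replicate 1 or 3. The gene higher with all libraries was the heme-degrading oxygenase Hmox1, at 295, 245 and 185 CPM in Jag1Ndr/Ndr livers, against 96.5, 103 and 67.6 CPM in Jag1+/+ livers. Its log2 fold change was 1.44 ± 0.24 (edgeR adjusted p = 0.0116, and 0.0542 and 0.0568 without Jag1+/+ replicates 1 and 3). Of the epoxide hydrolases, Ephx1, which detoxifies epoxides that P450 enzymes make, rose (1.22 ± 0.21, edgeR adjusted p = 0.0125, and 0.0801 and 0.0751 without Jag1+/+ replicates 2 and 3).

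Of 29 tested regulators of P450 genes, 1 was higher and 4 lower by edgeR (12 at an unadjusted p under 0.05, and 2 higher and 7 lower by DESeq2), with a median log2 fold change of -0.21. Over all genes tested, edgeR called 4.73% higher and 2.9% lower. The count of regulators lower by edgeR was 2 without Jag1+/+ replicate 1, 2 or 3, and 3 to 5 without 1 of the Jag1Ndr/Ndr libraries. Ghr, the growth hormone receptor, measured 84.7, 108 and 160 CPM in Jag1Ndr/Ndr livers, against 364, 384 and 428 CPM in Jag1+/+ livers (-1.74 ± 0.25, edgeR adjusted p = 0.00766), and passed in all 18 alternatives. Its downstream factor Stat5b fell (-0.78 ± 0.17, 0.0318), as did the PAR bZIP factor Hlf (-1.24 ± 0.19, 0.00956) and the fatty acid receptor Ppara (-1.37 ± 0.31, 0.0349). The factor Cebpd, induced in the acute phase, rose (1.47 ± 0.23, 0.00960). Stat5b had an adjusted p of 0.0677, 0.0574, 0.126 and 0.135 without Jag1Ndr/Ndr replicate 3 and Jag1+/+ replicates 1, 2 and 3, and Ppara one of 0.0734, 0.0710, 0.103 and 0.120. Cebpd had 0.0517 without Jag1+/+ replicate 2. In the deposited RPKM all these calls but that of Ghr were lost, and with library totals in place of TMM those of Stat5b, Ppara and Hlf. Stat5b and Ppara also lost theirs with sex as a covariate (0.0907 and 0.0732).

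The receptor genes Ahr, Nr1i3 and Nr1i2 did not pass by edgeR. Ahr measured 23.2, 38.5 and 43.2 CPM in Jag1Ndr/Ndr livers, against 61.4, 61.5 and 60.6 CPM in Jag1+/+ livers, apart but short of the threshold (-0.80 ± 0.22, edgeR adjusted p = 0.0637). It passed in 6 alternatives, among them those without Jag1Ndr/Ndr replicate 1 (-0.59, 0.0291) and replicate 3 (-0.98, 0.0484). Nr1i3, which encodes CAR, stood at 0.16 ± 0.29 (0.810), and at -0.23 without Jag1Ndr/Ndr replicate 1. Nr1i2, which encodes PXR, stood at -0.18 ± 0.17 (0.627), and at 0.08 in the deposited RPKM.

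Targets of these receptors outside the P450 family were set beside the P450 genes. Over all genes tested, edgeR called 4.73% higher and 2.9% lower. Of 3 tested AHR targets edgeR called 0 (0 at an unadjusted p under 0.05, and 0 by DESeq2), with a median of 0.05. Of 13 CAR and PXR targets, 3 were higher and 2 lower by edgeR (10 at an unadjusted p under 0.05, and 5 higher and 3 lower by DESeq2), with a median of 0.73. The carboxylesterase Ces2a (-1.38 ± 0.21, edgeR adjusted p = 0.00925) and the organic anion transporter Slco1a4 (-2.72 ± 0.39, 0.00776) fell, and the aldose reductase relative Akr1b7 (1.82 ± 0.44, 0.0438), the glutathione transferase Gstm3 (2.30 ± 0.42, 0.0170) and the stress gene Gadd45b (1.97 ± 0.41, 0.0262) rose. The call of Gstm3 was lost without Jag1+/+ replicate 1 (0.0581), 2 (0.0807) or 3 (0.0738). Gadd45b had 0.0535, 0.101, 0.0962 and 0.102 without Jag1Ndr/Ndr replicate 2 and Jag1+/+ replicates 1, 2 and 3. The count of higher targets was 1 without Jag1Ndr/Ndr replicate 2 and 0 without Jag1+/+ replicate 1, 2 or 3.

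Of 18 PPAR alpha targets, 2 were higher and 0 lower by edgeR (11 at an unadjusted p under 0.05, and 5 higher and 3 lower by DESeq2), with a median of -0.18. Over all genes tested, edgeR called 4.73% higher and 2.9% lower, and the share at that unadjusted p was not counted. Without Jag1Ndr/Ndr replicate 2 the calls among these targets turned to 0 higher and 2 lower, without Jag1Ndr/Ndr replicate 3 they were 2 and 0, and without any other single library there were 0. The genes higher with all libraries were the lipase inhibitor Angptl4 (1.23 ± 0.27, edgeR adjusted p = 0.0318) and the thioesterase Acot1 (1.32 ± 0.32, 0.0455). Leaving out Jag1Ndr/Ndr replicate 1 or 2 put the edgeR adjusted p of Angptl4 at 0.0606 or 0.0668, and it was 0.122, 0.0567 and 0.133 without Jag1+/+ replicates 1, 2 and 3. Acot1 had 0.0587, 0.0717 and 0.0979 without Jag1Ndr/Ndr replicates 1, 2 and 3, and 0.0567, 0.183 and 0.194 without Jag1+/+ replicates 1, 2 and 3. The P450 genes of families other than 1 to 4 numbered 19, of which 9 were tested. By edgeR 1 was higher and 1 lower (6 at an unadjusted p under 0.05, and 3 higher and 1 lower by DESeq2), with a median of 0.72. Cyp51, the lanosterol demethylase of cholesterol synthesis, rose (2.99 ± 0.32, edgeR adjusted p = 0.00300), and the retinoic acid hydroxylase Cyp26b1 fell (-4.81 ± 0.41, 0.00140). Without Jag1Ndr/Ndr replicate 2, 4 of these genes were higher.

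Some markers of several cell types passed the threshold too. Over all genes tested, edgeR called 4.73% higher and 2.9% lower. Of 16 hepatocyte markers, Ttr was lower by edgeR and 0 were higher (2 at an unadjusted p under 0.05, and 2 lower and 0 higher by DESeq2), with a median of -0.08. Without Jag1Ndr/Ndr replicate 1, 4 were lower, and without Jag1Ndr/Ndr replicate 2, 1 was higher and 1 lower. Ttr lost its call without Jag1Ndr/Ndr replicate 3 and Jag1+/+ replicates 1, 2 and 3 (0.0697, 0.0962, 0.101 and 0.104), which left 0 hepatocyte markers called. The summed level of the list ran from 206391 to 375387 CPM in Jag1Ndr/Ndr and from 333320 to 346610 CPM in Jag1+/+ livers.

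Of 8 neutrophil markers, 5 were higher in Jag1Ndr/Ndr livers, where 4.73% of all genes tested were higher. The count was 8 without Jag1Ndr/Ndr replicate 1, and 3, 1 and 1 without Jag1+/+ replicates 1, 2 and 3. Of 9 macrophage markers 2 were higher, against 1 without Jag1Ndr/Ndr replicate 1 or 2 or Jag1+/+ replicate 1, and 0 without Jag1+/+ replicate 2 or 3. Of 6 erythroid markers 2 were higher, against 4 without Jag1Ndr/Ndr replicate 3, 1 without Jag1+/+ replicate 1 and 0 without any other single library. Of 8 cholangiocyte markers 2 were higher, against 1 without Jag1+/+ replicate 1, 2 or 3, and 1 was lower without Jag1Ndr/Ndr replicate 3. The median log2 fold change was 1.47 for neutrophil, 0.38 for macrophage, 1.83 for erythroid and 0.17 for cholangiocyte markers. By DESeq2, 8 neutrophil, 4 macrophage, 5 erythroid and 2 cholangiocyte markers were higher and 0 lower.

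Of 9 stellate cell and fibroblast markers edgeR called 1 lower, Reln, and 0 higher (5 at an unadjusted p under 0.05, and 1 lower and 2 higher by DESeq2), while the median log2 fold change was 0.39. The lower call remained without Jag1Ndr/Ndr replicate 2 and was absent without any other single library, and 1 was higher without Jag1Ndr/Ndr replicate 3. Of 7 endothelial markers edgeR called 0 (1 at an unadjusted p under 0.05, and 0 by DESeq2), and 1 was lower without Jag1Ndr/Ndr replicate 1 or 2. Summed macrophage markers ran from 1575 to 2633 CPM in Jag1Ndr/Ndr and from 720 to 1246 CPM in Jag1+/+ livers, and summed cholangiocyte markers from 64.9 to 173 CPM in Jag1Ndr/Ndr and from 95.7 to 139 CPM in Jag1+/+ livers. The erythroid marker Hba-a1 was listed at 0 throughout, and what part these cells have in the P450 values was not tested.

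The other members had few counted reads. Of the 80 entries, 14 had fewer than 10 reads in all, 5 of them listed at 0 (Cyp2c66, Cyp2w1, Cyp4a12a, Cyp4a12b and Cyp4a30b), and 10 with at least 10 reads failed the filter. Among the 45 tested members that did not pass, 8 stood at least 2-fold higher and 4 at least 2-fold lower. Transcripts of 22 of the 65 members that could be matched shared over 20% of their 50-base stretches with another gene (median 7.61%), so reads of close paralogs may have been divided between entries or not counted. For such entries, Cyp3a41a at 98.6% among them, few reads do not show low expression.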

How the data were processed

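Mouse liver RNA was sequenced as 6 polyadenylated libraries, 3 per genotype and grouped by their labels, with a TruSeq RNA v2 kit, which keeps no strand information, per the labels' protocols. The deposited table holds whole read counts per gene entry, which the authors did not normalize. The RPKM columns beside them carry 1 TMM factor for each library, per the file headers. Dividing the RPKM by those factors gave reads per length and depth within 5% for 98.0% of values over 11559 genes. The RPKM had therefore been multiplied by them. They were 0.796, 1.28 and 1.10 in Jag1Ndr/Ndr replicates 1, 2 and 3, where the TMM factors fitted here were 0.869, 1.20 and 1.07. In Jag1+/+ replicates they were 0.940, 0.952 and 0.952, against 0.984, 0.953 and 0.956. The fitted factors divide the counts, so the deposited RPKM are scaled in the opposite direction to the CPM. STAR and mm10 are named in the submitters' processing notes, with no version of STAR, and which program counted the reads was not given in these sources. Rows of 93 spike-in and eGFP entries (5 reads) were left out.

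Counts of 24489 entries were filtered with filterByExpr, leaving 13819 genes, scaled by TMM and tested with edgeR 4.0.16 in R 4.3.3 (quasi-likelihood, Benjamini-Hochberg, threshold 0.05, common biological variation 0.243). Tests across all genes with adjusted p-values come from this fit unless another is named. The share of all genes at an unadjusted p under 0.05 was not counted, so list and subfamily counts at that level lack a baseline. Of 18 alternatives, 6 left out 1 library each, and others used limma 3.58.1, DESeq2 1.42.0, other scalings and filters, the replicate number as a block, or sex read from Xist. Shared 50-base stretches were counted in GENCODE transcripts. The named P450 genes were the markers, every gene past the threshold, the most abundant of each subfamily by RPKM and the 5 most abundant that did not pass. Of each other list these were Por, Alas1, Nr1i2, Nr1i3, Ahr, Ppara, Glul and up to 4 genes with the smallest adjusted p. Other P450 genes given with values, among them Cyp3a16, Cyp3a44, Cyp3a25, Cyp3a13, Cyp2a4, Cyp2a5, Cyp2a22, Cyp2c29, Cyp2c40, Cyp2d9, Cyp2j6, Cyp4a10 and Cyp4f18, were chosen after their values were seen. The members and gene lists were chosen with earlier results of these data known.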

Additional observations from a re-analysis of the deposited data

How the results depend on the processing

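The number of P450 genes lower in Jag1Ndr/Ndr livers was 10, and over the 18 alternatives 7 to 15, within 1.5 times throughout. Cyp1a2, Cyp2b9, Cyp2b10, Cyp2c69, Cyp2e1, Cyp2g1 and Cyp2j5 passed in all 18. The number higher was 1, and became 0 with a filter of at least 1 CPM in 3 libraries, 3 with the replicate block, 2 with sex as a covariate, 2 with limma on deposited RPKM (pseudocounts of 1, 0.1 and 0.5), 2 with limma voom and quality weights, and 5 with DESeq2. With 1 library left out it ran from 0 to 5. It was 0 without Jag1+/+ replicate 1, 2 or 3 and 5 without Jag1Ndr/Ndr replicate 2. Of 395 values for the 22 named P450 genes, 361 kept direction and call, 24 lost a call, 4 gained one and 6 reversed. Of 666 for 37 other genes, the numbers were 522, 129, 6 and 9.

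The log2 fold change of Cyp2u1 turned to -0.075 with the replicate block and -0.031 with quality weights, and ran from -1.03 to 0.85 with 1 library left out. That of Cyp4b1 turned to -0.053 with sex as a covariate, and ran from -0.44 to 0.46, turning to -0.20 without Jag1+/+ replicate 3. In the deposited RPKM, Por stood at 0.11 with each pseudocount, Nr1i2 at 0.082, 0.084 and 0.083 with pseudocounts of 1, 0.1 and 0.5, and Jag1 at 0.012 with a pseudocount of 1. Nr1i3 turned to -0.25 with quality weights and ran from -0.23 to 0.40 with 1 library left out. None of these 6 genes passed the threshold by edgeR with all libraries, and the cause was not tested.

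Library totals in place of TMM moved the median log2 fold change of all genes by 0.13, and the deposited RPKM by 0.21 to 0.22. Since TMM factors had been multiplied into the RPKM, calls lost or gained there reflect a different scaling as well as a different test. Higher genes made up 62.0% of calls over all genes with TMM (653 higher, 401 lower), 74.3% with library totals (606 and 210) and 78.5% to 79.4% in the deposited RPKM. Over all genes, DESeq2 called 1137 higher and 753 lower, quality weights 950 and 644, and sex as a covariate 366 and 230. Without Jag1+/+ replicates 1, 2 and 3 the counts were 208 and 134, 155 and 127, and 181 and 138.

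Replicate numbers are shared between genotypes but not stated to mark a litter or day. Deviations of same-numbered libraries correlated at 0.0856, 0.170 and 0.195, not all above 0.1, so the numbers were not taken to pair the libraries, although every library correlated best with its own number, a hint from the data and not the design. With the replicate block, 13 P450 genes were lower and 3 higher, and over all genes 587 were lower and 843 higher. With 3 libraries per genotype, and few reads for Cyp1b1, Cyp2b10 and Cyp2g1 in the shallow libraries, differences of low P450 genes may go undetected. Those of abundant genes may too. Cyp3a16 and Cyp3a44, at means of 249 and 194 CPM in Jag1+/+ livers, stood 5.03-fold and 7.09-fold lower in Jag1Ndr/Ndr livers without passing by edgeR.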
